A study of Lactuca sativa with 9 samples.

Results

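Pentatricopeptide repeat (PPR) genes encode the proteins examined here. A total of 431 rows of the lettuce gene table carry the word pentatricopeptide in their description, and 430 remained after LOC111877918 was left out. The genes were chosen by their mean FPKM (fragments per kilobase of transcript, scaled to the mapped fragments of a library) over the 9 libraries. The 300 highest were kept, 0.849% of the 35342 genes of the table, and the other 130 rows were not. The choice thus used the overall level of each gene, so that the levels below describe the genes chosen and are not a finding. Leaves of Hong Kong Glass lettuce (Lactuca sativa), collected 24 days after emergence, were compared under high light intensity (Las_SL, 340 μmol per square metre and second), a medium intensity of 175 (Las_ML) and a low intensity of 60 in the same unit (Las_WL), with 3 libraries per group and no other treatment named. The intensities are those of the sample labels and of the methods of the study, whose results text swaps the highest and the lowest, so a statement on Las_SL and Las_WL holds for the libraries so named. Leaves are mixed tissue, in which fewer cells of a type and less RNA per cell cannot be told apart.

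PPR proteins are encoded in the nucleus, and most are imported into chloroplasts or mitochondria. There they bind organelle transcripts in a sequence-specific manner and take part in cleavage, stabilization, splicing, translation and C-to-U editing of RNA. Flowering plants hold very many of these genes, most of them expressed at a low level, and embryo lethality or pale leaves are common phenotypes of Arabidopsis mutants. One of them, GUN1, acts in signaling from the chloroplast to the nucleus.

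Most PPR genes were weakly expressed. The mean FPKM of the 300 genes ranged from 0.490 to 46.2 with a median of 1.69, whereas the median of all 26145 genes tested was 5.36. A mean of at least 1 was reached by 193 genes (64.3%), of at least 5 by 55 genes (18.3%) and of at least 20 by 2 genes. The last genes kept were LOC111909194 (0.493), LOC111892697 (0.492) and LOC111904120 (0.490), and the first genes not kept were LOC111884849 (0.487), LOC111910691 (0.482) and LOC111904891 (0.471). These neighbours differed by less than their spread between libraries, since LOC111904120 alone ranged from 0.217 to 0.709. The last 3 genes kept lay below the mean FPKM of 0.5 required for testing, which left 297 genes in the tests.

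**Figure D1:**
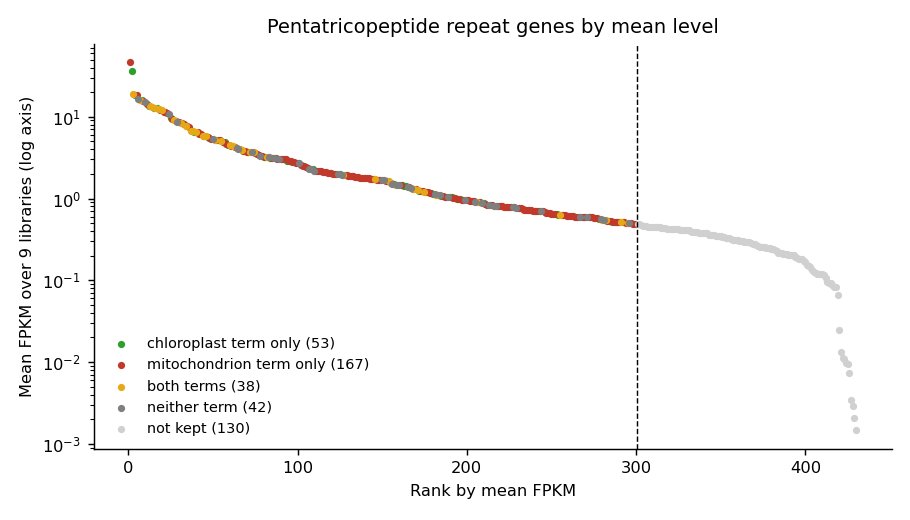
Mean FPKM over the 9 libraries (log axis) of the 430 rows described as pentatricopeptide, by rank, with the 300 genes kept to the left of the dashed line and coloured by their organelle term. The genes kept run from 46.2 down to 0.490 FPKM, and the 4 classes of organelle term mix along the whole rank.

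By gene ontology (GO) term, 167 genes had a mitochondrion term only, 53 a chloroplast term only, 38 both and 42 neither. Genes with both terms had the highest median level (4.17 FPKM), followed by the chloroplast-only (1.50 FPKM), neither (1.49 FPKM) and mitochondrion-only (1.37 FPKM) genes. All of these classes spanned nearly the whole range, from below 0.51 to at least 16.6 FPKM.

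Levels also differed with the role named by the GO terms, a grouping chosen after the values were seen. The 84 genes with a zinc ion binding term had a median of 0.842 FPKM and the other 216 genes a median of 1.97 FPKM. Zinc is bound by the DYW domain at the end of many editing factors. The 37 genes with a term for C-to-U editing or another RNA modification likewise had a low median, 0.970 FPKM, with a maximum of 4.57 FPKM. The 23 genes with a term for embryo development had a median of 3.90 FPKM. Of the 300 descriptions, 50 name an Arabidopsis locus, 43 different loci in all, and 4 loci are named by more than 1 gene. Whether genes that share a name are near-identical copies, among which reads could be divided, was not examined. In the order of protein-coding genes of the RefSeq assembly Lsat_Salinas_v11, which held the names of 289 genes, 12 pairs of PPR genes were direct neighbours. In 10 of them the mean levels lay within 3-fold of each other. Both genes of a pair had passed the same cut on mean level, and other pairs of genes were not examined. The 10 pairs thus do not show that neighbours have like levels.

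The most abundant PPR gene was LOC111918540, with a mean of 46.2 FPKM. It was at 41.9, 50.5 and 43.9 FPKM in Las_SL, at 43.7, 56.8 and 39.3 FPKM in Las_ML and at 21.8, 59.8 and 58.3 FPKM in Las_WL. Only Las_WL replicate 1 lay apart, below all other libraries. Its GO terms list protein kinase activity beside the mitochondrion, a function that is not typical of PPR proteins. LOC111902069, a chloroplast-only gene with the terms for chloroplast-nucleus and mitochondria-nucleus signaling, followed with 38.5, 36.7 and 36.9 FPKM in Las_SL, 31.5, 39.7 and 35.9 FPKM in Las_ML and 30.9, 38.1 and 38.8 FPKM in Las_WL. These levels overlapped between the groups, and its coefficient of variation over the 9 libraries was 8.66%, against a median of 26% over the 300 genes. Its log2 fold change was 0.06 ± 0.15 (standard error) in the Las_SL vs. Las_WL comparison (limma, adjusted p = 0.861).

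The next genes were far lower. LOC111880480, named after Arabidopsis At3g06430, had a mean ± SD (n = 3) of 20.1 ± 1.28 FPKM under high, 19.7 ± 2.47 under medium and 18.0 ± 1.73 under low light. LOC111907659, named after At5g48730, had 16.7 ± 1.88, 16.4 ± 0.312 and 14.8 ± 0.970 FPKM in the same order. Both carry the terms rRNA binding, embryo development and both organelles. LOC111914665, a chloroplast-only gene with the term chloroplast organization, had 17.0 ± 1.24, 18.5 ± 1.82 and 20.4 ± 4.80 FPKM, and LOC111890902, also chloroplast-only, had 16.2 ± 2.97, 16.2 ± 1.89 and 15.5 ± 2.77 FPKM. The libraries of all groups overlapped in these 4 genes, except that every Las_ML library of LOC111907659 lay above every Las_WL library. None was called in any comparison with all libraries.

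The mitochondrion-only gene LOC111902654 was at 19.7, 14.8 and 18.5 FPKM in Las_SL, at 13.5, 18.6 and 21.7 FPKM in Las_ML and at 34.6, 13.1 and 12.4 FPKM in Las_WL. The high value in Las_WL replicate 1 gave Las_WL an SD of 12.6 FPKM (n = 3), with both other Las_WL libraries below every library of the other groups. LOC111886535, which has no GO term, had 13.7 ± 4.79 FPKM in Las_SL, 14.5 ± 6.34 in Las_ML and 17.2 ± 8.06 in Las_WL, again with its highest value, 26.5 FPKM, in Las_WL replicate 1. LOC111896793, with a nucleus and a transcription factor term in place of an organelle term, was at 18.9, 22.2 and 19.5 FPKM in Las_SL, at 20.1, 16.6 and 14.5 FPKM in Las_ML and at 11.6, 14.0 and 12.2 FPKM in Las_WL. Its Las_SL and Las_WL libraries did not overlap, but with a log2 fold change of 0.64 ± 0.16 (standard error) it did not pass the threshold (limma, adjusted p = 0.0521). LOC111878022, a mitochondrion-only gene, showed the same order, with 16.7, 21.5 and 18.1 FPKM in Las_SL, 14.7, 17.4 and 14.8 FPKM in Las_ML and 10.7, 13.1 and 13.4 FPKM in Las_WL (log2 fold change 0.56 ± 0.15, limma adjusted p = 0.067). When the test was limited to genes reaching a mean of 5 FPKM, these were the 2 PPR genes called in the Las_SL vs. Las_WL comparison, with limma adjusted p of 0.0381 for LOC111896793 and 0.0494 for LOC111878022.

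**Figure D2:**
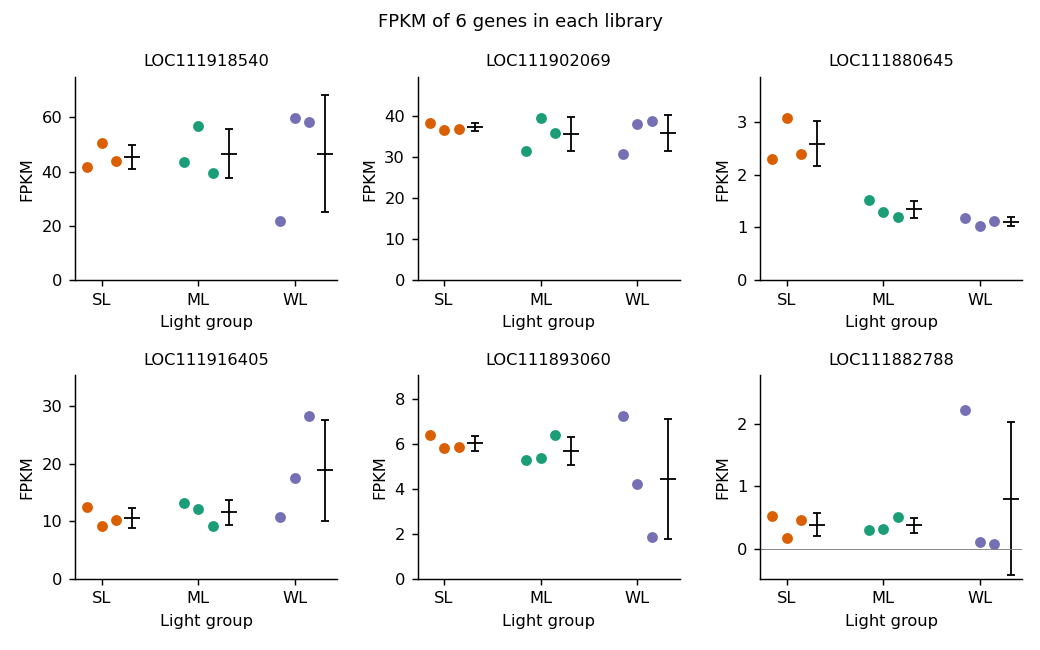
FPKM of 6 PPR genes in each library (points, replicates 1 to 3 from left to right in each group), with the mean and SD of the 3 libraries as a bar beside them. LOC111902069 hardly varied, and LOC111880645 was higher in every Las_SL library than in all others. In LOC111918540, LOC111916405, LOC111893060 and LOC111882788 the Las_WL libraries spread most.

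The libraries of the Las_WL group were unlike each other. The median coefficient of variation of a PPR gene within a group was 12.8% under high, 14.4% under medium and 36.6% under low light, and between Las_WL replicates 2 and 3 it was 13%. The same held over all genes tested, at 17.4%, 17.6% and 39.7%. The 300 genes summed to between 851 and 1059 FPKM in 8 libraries and to 1224 FPKM in Las_WL replicate 1, and Las_WL replicate 2 had the lowest sum. Las_WL replicate 1 held the highest value of 148 PPR genes (49.3%, against 35.1% of all genes tested), and Las_WL replicate 2 the lowest value of 146 (48.7%, against 24.2%). In Las_WL replicate 1, 228 of the 300 genes (76%) lay above both other Las_WL libraries, against 54.4% of all genes tested, and 41 lay below both.

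Markers of dividing cells moved with these levels. The minichromosome maintenance (MCM) list, 6 rows of the DNA replication helicase, summed to 347 FPKM in Las_WL replicate 1, to 6.83 and 3.52 FPKM in Las_WL replicates 2 and 3, to between 1.67 and 81.7 FPKM in Las_SL and to between 3.87 and 64.5 FPKM in Las_ML. The 39 rows of the histone list, of which 11 are histone-modifying or related proteins by their description, summed to 7660 FPKM in Las_WL replicate 1 and to between 509 and 2206 FPKM elsewhere. The leaf markers were present in every library. The 27 chlorophyll a/b binding rows were at 7715 FPKM in Las_WL replicate 1, their lowest sum, and at 19489 FPKM in Las_WL replicate 2, their highest. The 3 Rubisco small subunit rows did not share this minimum. They summed to 3065 FPKM in Las_WL replicate 1, to 8265 FPKM in Las_WL replicate 2 and to 1819 and 2311 FPKM in Las_SL replicates 2 and 3. The part of dividing cells in the PPR levels was not tested.

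**Figure D3:**
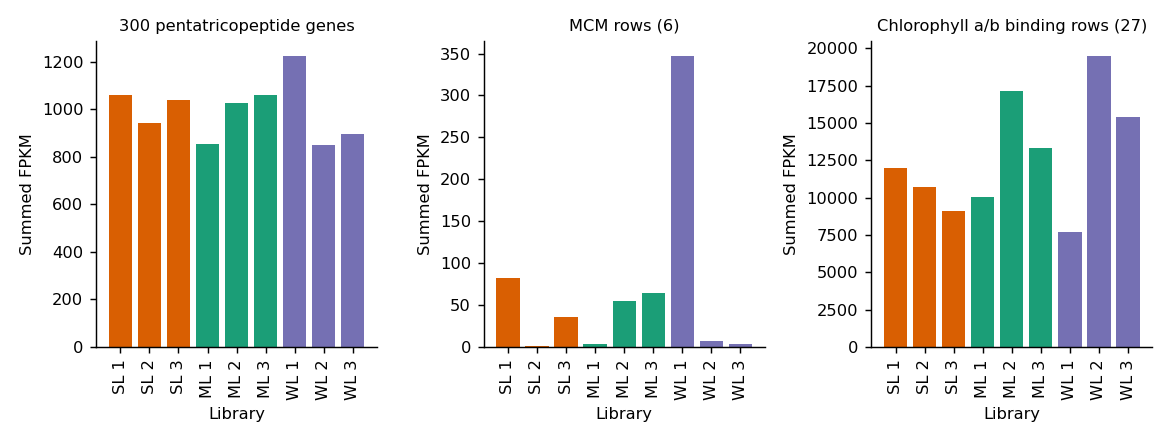
Summed FPKM per library of the 300 PPR genes, of 6 MCM rows, which mark DNA replication, and of 27 chlorophyll a/b binding rows, which mark leaf mesophyll (bars, coloured by light group). In Las_WL replicate 1 the PPR genes and MCM reach their highest sums, 1224 and 347 FPKM, and the chlorophyll a/b binding rows their lowest, 7715 FPKM.

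The PPR genes of largest spread showed this library in full. LOC111882788, a mitochondrion-only gene, was at 2.22 FPKM in Las_WL replicate 1 and between 0.0702 and 0.519 FPKM in the other 8 libraries, a coefficient of variation of 126%. LOC111911791, without a GO term, was at 3.17 FPKM there and between 0.272 and 1.15 FPKM elsewhere (98.5%). The merged row of LOC111916381 and LOC111916383 was at 31.4 FPKM there, at 25.3 FPKM in Las_ML replicate 3 and at 3.09 FPKM in Las_SL replicate 2, where it was lowest (70.6%). It joins a PPR gene named after At2g37230 with a gene for an RNA-binding protein, so its value does not belong to the PPR gene alone. In all, 8 of the 300 rows merge 2 gene names and 7 descriptions name a second product. Of the 300 genes, 28 had a coefficient of variation of at least 50%.

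In the Las_SL vs. Las_ML comparison, no PPR gene of 297 passed an adjusted p of 0.05, upward (0.00382% of all genes tested did) or downward (0% of all genes). At an unadjusted p below 0.05 there were 4 PPR genes, all higher in Las_SL, or 1.35%, against 5.52% of all genes. Of all genes at that p, 1016 were higher and 426 lower in Las_SL. The Las_SL and Las_ML libraries did not overlap, with Las_SL higher, in 52 PPR genes (17.5%, against 14.5% of all genes), and with Las_SL lower in 6 (2.02%, against 4.2%). The median log2 fold change was 0.06 over the PPR genes and 0.05 over all genes. The smallest p belonged to LOC111880645, at a log2 fold change of 0.61 ± 0.14 (standard error; limma, adjusted p = 0.61), and to LOC111893956, a chloroplast-only gene with an RNA modification term, at 0.38 ± 0.14 (limma, adjusted p = 0.867). LOC111893956 was at 1.99, 1.72 and 1.68 FPKM in Las_SL, at 1.02, 1.21 and 1.23 FPKM in Las_ML and at 1.64, 1.29 and 1.19 FPKM in Las_WL.

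In the Las_WL vs. Las_ML comparison, again no PPR gene was called in either direction, as was none of the 26145 genes tested (0% upward and 0% downward). At an unadjusted p below 0.05 there were 8 PPR genes, all lower in Las_WL, or 2.69%, against 13.8% of all genes. Most of all genes at that p were also lower, 3398 against 206 higher. Quantile normalization, which sets all libraries to 1 distribution of values, turned the direction of the PPR genes. It left 11 of them at that p, all higher in Las_WL (7.37% of all genes, 789 higher and 1137 lower). Without Las_WL replicate 1, 5 PPR genes were higher and 47 lower (27.9% of all genes, 668 higher and 6632 lower). The groups did not overlap with Las_WL lower in 23 PPR genes (7.74%, against 18.2% of all genes) and with Las_WL higher in 4 (1.35%, against 1.47%). The median log2 fold change was -0.03 over the PPR genes and -0.13 over all genes. Over the PPR genes it was 0.14 with quantile normalization, 0.06 without Las_WL replicate 2, 0.01 without Las_WL replicate 3 and -0.19 without Las_WL replicate 1, so its sign depended on the scaling and on single libraries. The smallest p belonged to LOC111883237, a gene with both organelle terms named after At1g62350, at -0.47 ± 0.17 (standard error; limma, adjusted p = 0.286), and to LOC111916358, without a GO term, at -0.59 ± 0.21 (limma, adjusted p = 0.291). LOC111916358 was at 1.57, 2.16 and 2.36 FPKM in Las_SL, at 1.92, 1.01 and 1.94 FPKM in Las_ML and at 1.08, 0.475 and 0.653 FPKM in Las_WL, so that 1 Las_ML library lay within the Las_WL range.

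In the Las_SL vs. Las_WL comparison a single PPR gene rose in Las_SL, LOC111880645, or 0.337% of 297, against 5.67% of all genes tested, and none fell, against 0.264%. LOC111880645, named after At3g03580, has no GO term. It was at 2.29, 3.07 and 2.39 FPKM in Las_SL, at 1.52, 1.30 and 1.21 FPKM in Las_ML and at 1.19, 1.02 and 1.12 FPKM in Las_WL. Every Las_SL library lay above all others and the Las_ML libraries lay above the Las_WL libraries. Its log2 fold change was 0.76 ± 0.14 (standard error; limma, adjusted p = 0.0325) on the log2(FPKM + 1) scale, on which the change of a weakly expressed gene comes out too small. The adjusted p ranged from 0.0188 to 0.193 over 16 alternatives and the call was lost in 12 of them, including each fit without any one Las_SL or Las_ML library or without Las_WL replicate 2. At an unadjusted p below 0.05 there were 31 PPR genes (10.4%, against 26.3% of all genes), 28 of them higher in Las_SL. Most of all genes at that p were also higher, 6240 against 640 lower. With quantile normalization there were 25 PPR genes, of which 22 were lower in Las_SL (16.1% of all genes in either direction). Of all genes, 2329 were then higher and 1875 lower. The libraries did not overlap with Las_SL higher in 49 PPR genes (16.5%, against 27.2% of all genes) and with Las_SL lower in 7 (2.36%, against 2.89%). The median log2 fold change was 0.10 over the PPR genes and 0.18 over all genes, and with quantile normalization the medians became -0.10 and -0.01.

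Without Las_WL replicate 1, which left 2 libraries in Las_WL, 32 PPR genes rose in Las_SL and 2 fell in the Las_SL vs. Las_WL comparison, 10.8% and 0.673% of 297, whereas 19.6% of all genes rose and 1.98% fell. The median log2 fold change was then 0.26 over the PPR genes and 0.32 over all genes. The genes called, which are described here after their values were seen, include LOC111880645. The 3 of smallest p were LOC111894995, LOC111889944 and LOC111880995. LOC111894995, a mitochondrion-only gene named after At5g46100, was at 4.07, 4.07 and 4.03 FPKM in Las_SL, at 2.95, 2.87 and 2.58 FPKM in Las_ML and at 3.75, 1.98 and 1.91 FPKM in Las_WL. The Las_SL libraries lay above all others, and Las_WL replicate 1 lay nearer to Las_SL than to the other Las_WL libraries. Its log2 fold change was 0.78 ± 0.11 without Las_WL replicate 1 (limma, adjusted p = 0.0146) and 0.55 ± 0.20 with it (limma, adjusted p = 0.129). LOC111889944, whose only GO terms are of RNA polymerase III, was at 4.49, 4.66 and 4.94 FPKM in Las_SL and at 6.40, 1.98 and 2.37 FPKM in Las_WL. LOC111880995, a mitochondrion-only gene, was at 3.58, 4.35 and 3.81 FPKM in Las_SL and at 3.07, 1.66 and 1.91 FPKM in Las_WL, below every Las_SL library.

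The 2 genes that fell in Las_SL were chloroplast-only. LOC111916405, with the terms mRNA processing and chloroplast stroma, was at 12.5, 9.19 and 10.2 FPKM in Las_SL, at 13.3, 12.2 and 9.19 FPKM in Las_ML and at 10.8, 17.5 and 28.3 FPKM in Las_WL. Its log2 fold change was -1.01 ± 0.24 without Las_WL replicate 1 (limma, adjusted p = 0.0301) and -0.69 ± 0.31 with it (limma, adjusted p = 0.211). LOC111885358, with the terms zinc ion binding and embryo development, was at 1.68, 1.10 and 1.64 FPKM in Las_SL, at 1.90, 2.26 and 2.06 FPKM in Las_ML and at 1.44, 2.55 and 2.78 FPKM in Las_WL. In both genes Las_WL replicates 2 and 3 were the highest libraries and Las_WL replicate 1 lay within the range of Las_SL.

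**Figure D4:**
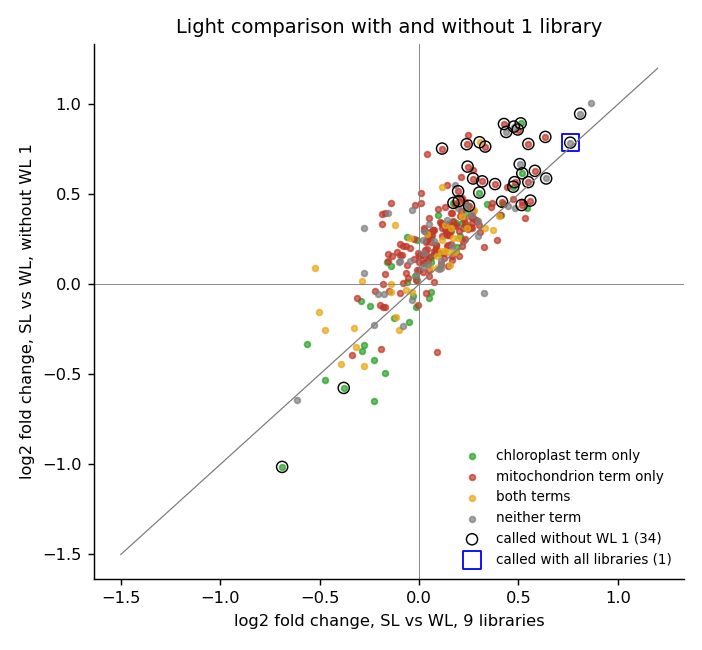
Log2 fold change of the 297 PPR genes tested in the Las_SL vs. Las_WL comparison, from the fit to 9 libraries (horizontal) and without Las_WL replicate 1 (vertical), coloured by organelle term, with circles around the 34 genes called without that library, a square around the 1 gene called with it, and a line of equal values. Most points lie above the line, as the median moved from 0.10 to 0.26.

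These numbers also depended on the scaling. When the libraries were quantile normalized and Las_WL replicate 1 was left out, an alternative chosen after the data were seen, no PPR gene rose in Las_SL and 6 fell (2.02% of 297), whereas 0.895% of all genes rose and 2.12% fell. LOC111916405 and LOC111885358 were the 2 genes called with and without quantile normalization. LOC111914665, LOC111889403, LOC111913999 and LOC111880990 were called with it only, and the 32 genes that had risen were not called. LOC111880990, with the terms chloroplast RNA modification and both organelles, was at 2.79, 2.41 and 3.05 FPKM in Las_SL, at 2.66, 3.25 and 2.95 FPKM in Las_ML and at 3.60, 3.49 and 4.72 FPKM in Las_WL, so that all Las_WL libraries, replicate 1 included, lay above all others. In the Las_WL vs. Las_ML comparison no PPR gene was called without Las_WL replicate 1 (0.088% of all genes rose and 0.398% fell), nor with quantile normalization added (0.0459% and 0.0306%).

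The chloroplast-only and mitochondrion-only genes differed in how far they followed the libraries. As a median over genes of the difference from each gene's mean on the log2(FPKM + 1) scale, the mitochondrion-only genes stood at 0.24 in Las_WL replicate 1 and at -0.25 and -0.18 in Las_WL replicates 2 and 3, and the chloroplast-only genes at 0.12, -0.16 and -0.08. In the Las_SL and Las_ML libraries the medians of these classes lay within 0.06 of each other. Summed over the class, the mitochondrion-only genes reached 599 FPKM in Las_WL replicate 1 and 362 and 378 FPKM in replicates 2 and 3, and the chloroplast-only genes 214, 207 and 232 FPKM. The ratio of chloroplast-only to mitochondrion-only sums was 0.357 in Las_WL replicate 1, 0.572 and 0.614 in Las_WL replicates 2 and 3, and between 0.411 and 0.454 in the Las_SL and Las_ML libraries. Las_WL thus held both the lowest and the highest values of this ratio.

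Gene by gene the picture was the same. Las_WL replicate 1 lay above both other Las_WL libraries in 142 of the 167 mitochondrion-only genes (85%) and in 31 of the 53 chloroplast-only genes (58.5%). The share over all genes tested was 54.4%, close to that of the chloroplast-only genes. Between groups, the median log2 fold change of the chloroplast-only genes exceeded that of the mitochondrion-only genes by 0.09 in the Las_WL vs. Las_ML comparison, where the difference between the classes varied among replicates with an SD of 0.09. It was lower by 0.06 in the Las_SL vs. Las_WL comparison (0.06 and 0.12, SD 0.09) and higher by 0.01 in the Las_SL vs. Las_ML comparison (SD 0.02). None of these differences was larger than the spread between replicates. Single Las_WL libraries decided their size, as the Las_WL vs. Las_ML value was 0.16, 0.04 and 0.03 without Las_WL replicate 1, 2 and 3, and the Las_SL vs. Las_WL value was -0.11, 0.01 and -0.02. Genes of these organelles outside the PPR genes had the same sign of the difference in each Las_WL library, with a difference of chloroplast-only (1970 genes) minus mitochondrion-only (1108 genes) medians of -0.18 in Las_WL replicate 1 and of 0.15 and 0.11 in Las_WL replicates 2 and 3, where the PPR genes had -0.13, 0.08 and 0.10. Without Las_WL replicate 1, 20 mitochondrion-only genes rose in the Las_SL vs. Las_WL comparison and none fell (12.1% of 165 called), and 5 chloroplast-only genes rose and 2 fell (13.5% of 52), beside 21.6% of all genes tested, 24.3% of the other mitochondrion-only genes and 21.0% of the other chloroplast-only genes. The difference between these shares was not tested.

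**Figure D5:**
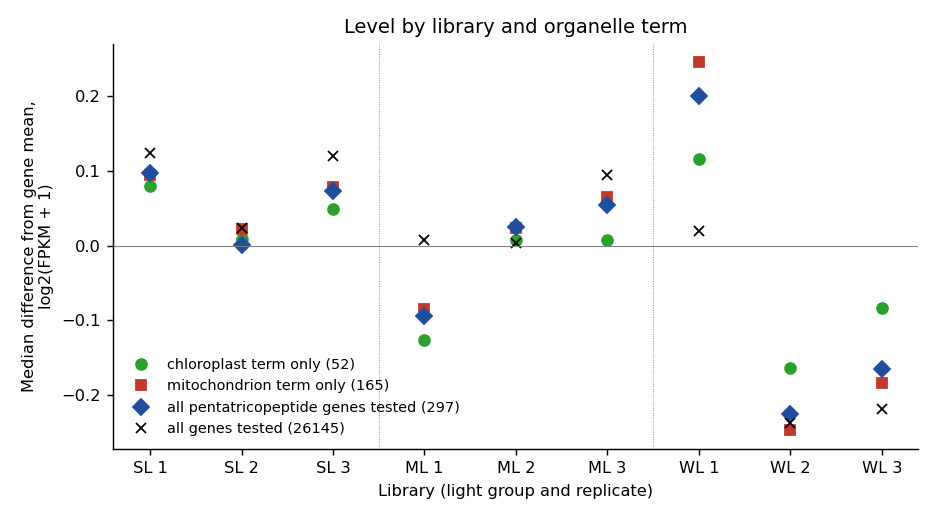
Median difference of a gene from its own mean over the 9 libraries, on the log2(FPKM + 1) scale, in each library, for chloroplast-only (circles), mitochondrion-only (squares) and all PPR genes (diamonds) and for all genes tested (crosses). The classes spread most in Las_WL, where the mitochondrion-only genes run from 0.24 in replicate 1 to -0.25 in replicate 2.

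Small groups of known role, picked after the values were seen, varied in how they followed Las_WL replicate 1. The genes with a ribonuclease P term, whose Arabidopsis counterparts remove the leader of organelle tRNAs, were LOC111904313, at 5.76, 3.32 and 5.49 FPKM in Las_SL, 3.93, 4.88 and 6.18 FPKM in Las_ML and 12.2, 4.45 and 6.50 FPKM in Las_WL, and LOC111908709, with 7.53 FPKM in Las_WL replicate 1 and 2.38 to 5.62 FPKM elsewhere. Both were highest in Las_WL replicate 1 and lowest in Las_SL replicate 2. The 5 genes with an RNA splicing term had means of 1.41 to 4.37 FPKM. LOC111913574, the most abundant of them, was at 8.07 FPKM in Las_WL replicate 1 and at 2.16 and 2.47 FPKM in replicates 2 and 3. Of the 4 chloroplast organization genes, LOC111914665, described above, and LOC111896721 were lower in Las_WL replicate 1 than in replicates 2 and 3. LOC111896721 had 1.37 FPKM in Las_WL replicate 1 and 3.67 and 5.96 FPKM in replicates 2 and 3, against 2.36 to 2.91 FPKM in Las_SL. The other two chloroplast organization genes, LOC111886231 and LOC111877126, were higher in Las_WL replicate 1. The 3 genes with a mitochondrial translation term, LOC111915802, LOC111896279 and LOC111915803, all named after At5g64320, had nearly equal means of 0.715, 0.710 and 0.628 FPKM, and their values are uncertain where they share reads.

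Among other nuclear genes of organelle RNA metabolism and a related repeat family, 1 row was called with all libraries. None of 20 mitochondrial or chloroplast transcription termination factor (mTERF) rows, 10 CRM domain rows (splicing factors), 7 plastid sigma factors, 3 phage-type RNA polymerases and 1 organellar RNA editing factor was called in any comparison, and of 56 rows with the related tetratricopeptide repeat 1 rose in the Las_SL vs. Las_WL comparison. Without Las_WL replicate 1, all 3 phage-type RNA polymerases, 2 CRM domain, 2 mTERF and 18 tetratricopeptide rows rose in that comparison. Another 1 mTERF, 1 sigma factor and 1 tetratricopeptide row fell. In the same fit 19.6% of all genes rose and 1.98% fell, so the few CRM domain and mTERF calls do not set these lists apart. The 3 of 3 phage-type RNA polymerases and 18 of 56 tetratricopeptide rows that rose were larger shares than 19.6%, a difference that was not tested. With all libraries, the median log2 fold change in the Las_SL vs. Las_WL comparison was -0.02 for mTERF, 0.11 for CRM domain and -0.13 for sigma factor rows. It was 0.47 for phage-type RNA polymerase and 0.26 for tetratricopeptide rows, beside 0.10 for the PPR genes and 0.18 for all genes. Sigma factors, which guide the plastid-encoded RNA polymerase to its promoters, ran against the PPR genes, with a median difference from the gene mean of -0.96 in Las_WL replicate 1 and of 0.29 and 0.62 in Las_WL replicates 2 and 3. The mTERF rows ran with the PPR genes, at 0.42, -0.21 and -0.22.

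Few circRNAs came from the 300 PPR genes. Circular RNAs form when a downstream splice site joins an upstream one, and are counted by the reads that cross this back-spliced junction. Of 1650 circRNAs with 6836 back-spliced reads in all, 2 came from the 300 genes, with 7 reads together, and 298 genes had none. With 1650 circRNAs among 35342 genes, most genes of the table had none either. The 300 genes were 0.849% of the table, and 2 of 1650 circRNAs is a smaller share than that. The difference was not tested. LOC111877918, the PPR gene left out, is not counted here and alone had 5 circRNAs, so the number describes the 300 genes and not the whole family. circRNA540 spans 2 exons of LOC111893060 on scaffold NW_019682334.1 of Lsat_Salinas_v7, minus strand, from 2878095 to 2878393. It had 2 reads each in Las_WL replicates 2 and 3, 1 read each in replicate 3 of Las_SL and of Las_ML, and 0 reads in the other 5 libraries. A count of 0 allows up to 3 reads in a library, so the groups cannot be told apart at this depth, and no fold change is given. It was the only circRNA of a PPR gene with reads in at least 2 libraries and was not called in any comparison (edgeR, adjusted p = 0.997 in the Las_SL vs. Las_ML, 0.621 in the Las_WL vs. Las_ML and 0.581 in the Las_SL vs. Las_WL comparison), nor by DESeq2 (adjusted p = 1 in each). Of the 347 circRNAs tested, 0.288%, 0.288% and 0% were called in these comparisons.

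The parent of circRNA540, LOC111893060, is a mitochondrion-only gene, at 6.43, 5.81 and 5.88 FPKM in Las_SL, at 5.30, 5.41 and 6.42 FPKM in Las_ML and at 7.26, 4.22 and 1.88 FPKM in Las_WL. The Las_WL libraries that held the circRNA reads were those with the lowest level of the gene. It was among the genes higher in Las_SL than in Las_WL without Las_WL replicate 1 (log2 fold change 0.86 ± 0.24, limma adjusted p = 0.0435), and with all libraries its adjusted p was 0.403 (limma). The second circRNA, circRNA1164, covers 1 exon of LOC111889595 on scaffold NW_019681514.1, minus strand, from 102214 to 102462, and had 1 read, in Las_ML replicate 3. LOC111889595, a gene with both organelle terms, had 7.23 ± 1.42 FPKM in Las_SL, 7.54 ± 1.75 in Las_ML and 8.12 ± 1.90 in Las_WL. Counted over all rows described as pentatricopeptide there were 8 circRNAs, of which 5 belong to LOC111877918, the gene left out, whose circRNA213 alone held 435 reads.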

How the data were processed

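The authors mapped reads to Lsat_Salinas_v7. Per the labels, their processing notes also name HISAT2 2.0, StringTie 1.3.0 and Bowtie 0.12.2, and the mouse build mm8, although the circRNA positions lie on lettuce scaffolds. They deposited FPKM values for 35342 genes without read counts, so the depth behind an FPKM value is unknown, and raw counts of back-spliced reads for 1650 circRNAs (398 to 1036 per library). The paper states rRNA depletion and RNase R digestion of linear RNA, and the labels describe poly(A) selection. Had RNase R acted on these libraries, the FPKM would come from undigested linear RNA. The deposited SRPBM signal (reads scaled by a library total) was not used.

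FPKM values were tested with limma 3.58.1 on the log2(FPKM + 1) scale, with all 9 libraries and the 26145 genes that reached a mean of 0.5 FPKM (eBayes with a trend, Benjamini-Hochberg adjustment, called at an adjusted p below 0.05). For the counts, edgeR's quasi-likelihood test was run on circRNAs seen in 2 or more libraries, with uniquely mapped reads as library size. Both steps were run on simulated data, but the simulated circRNA counts were far deeper than the real ones. That run does not show how the edgeR test performs at the read numbers found here. Floors and counting limits cover counting error only.

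Genes and lists were chosen with earlier results of these data known. Named genes are the 10 of highest mean, those around rank 300, called genes or those of smallest p, the 3 highest of each organelle class, parents of a circRNA with at least 3 reads and the 3 of highest coefficient of variation. Others were chosen after their values were seen. Whether replicates were separate plants is not given in the labels.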

Additional observations from a re-analysis of the deposited data

How the results depend on the processing

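The number of PPR genes called in the Las_SL vs. Las_WL comparison, 1 with all libraries, was 2 with a minimum mean FPKM of 5, and 0 with quantile normalization, with values rescaled without the 10 most abundant genes, with only the libraries of the comparison, and with a log2 fold change of at least 1 required beside the adjusted or the unadjusted p. It was 6 with quantile normalization and without Las_WL replicate 1, an alternative chosen after seeing the data. Leaving out 1 library at a time gave 0 to 34, with 34 without Las_WL replicate 1, 1 without Las_WL replicate 3 and 0 without any other library. The cause was not tested. With the replicate number as a block it was 0. Same-numbered libraries did not deviate together throughout (correlations of -0.52 to 0.56). Between Las_SL and Las_WL the correlations were 0.56 and 0.42 for replicates 1 and 2 and -0.27 for replicate 3. Whether same-numbered libraries share a batch or harvest cannot be told from these values. The counts of 0 in the other comparisons held in all 19 alternatives and that of the circRNAs in 14. A minimum of 10 reads left no circRNA of a PPR gene to test. The difference between chloroplast-only and mitochondrion-only medians in the Las_SL vs. Las_ML comparison became -0.02 with genes of both terms counted in both classes and -0.01 without Las_ML replicate 3. The FPKM tables hold no read counts, so the depth behind a low value is unknown, and circRNAs with 6 reads or fewer allow no comparison.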
